A study of Mus musculus with 21 samples.

Results

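Glycolysis and the pentose phosphate pathway were followed through 32 named genes in microglia, the resident macrophages of the brain, sorted from the striatum of male mice. The genes cover the enzymes from hexokinase to lactate dehydrogenase, the regulators of phosphofructokinase, the lactate carriers, the pyruvate dehydrogenase kinases, Hif1a and the 7 enzymes of the pentose phosphate pathway. They were chosen by symbol for what the encoded proteins do. All 32 matched rows of a table of 55487 genes through their Ensembl identifiers, in 33 rows, because Aldoa has a second row of 0 to 5 counts per library that was not used. All 32 passed the filter on low counts.

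The mice were 8 to 10 weeks old and were born to dams whose immune system had been activated in pregnancy (maternal immune activation, MIA) or to control dams. Every mouse had an intraperitoneal injection 18 hours before the cells were taken, of lipopolysaccharide (LPS, a bacterial cell wall component) at 4500 endotoxin units per gram of body weight or of saline. Neither the agent given to the dams nor the litters are known from the labels. The groups held 4 libraries of MIA offspring after LPS, 6 of MIA offspring after saline, 5 of control offspring after LPS and 6 of control offspring after saline. The sort took live cells with CD11b, low CD45 and P2RY12 on the surface, so P2ry12 is a gene of the gate. RNA came from pooled cells, in which fewer cells of a type and less RNA per cell cannot be told apart.

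In glycolysis, glucose is phosphorylated by hexokinase, committed by phosphofructokinase and split into trioses, whose oxidation to pyruvate yields ATP and NADH. Lactate dehydrogenase turns pyruvate into lactate and restores NAD+, and pyruvate dehydrogenase, which its kinases switch off, sends pyruvate into the mitochondria instead. The pentose phosphate pathway branches off after hexokinase: its oxidative arm makes NADPH, which macrophages use for the oxidative burst and for glutathione, and its other arm makes ribose phosphate and returns sugar phosphates to glycolysis. Macrophages stimulated with LPS are known for raised glycolysis.

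Totals of the 19 fitted batch 1 libraries ran from 9.85 to 19.0 M counts, and 1 ribosomal RNA gene took 48% of counts on average. MIA offspring after LPS replicate 4 is the only library of batch 2, so a batch term took up its level and the contrasts rest on the levels of 3, 5, 5 and 6 libraries of batch 1, in the group order above. Replicate 6 of MIA offspring after saline carries the word excluded in its title and stayed out of the fit. All 10 microglia markers listed passed the filter on low counts. Levels are CPM, the count of a gene scaled by its library total after that total was adjusted by edgeR's TMM factor for the library. P2ry12 averaged 203 CPM after LPS and 2050 CPM after saline in MIA offspring, and 188 and 1970 CPM in control offspring. Itgam averaged 313 and 321 CPM in MIA offspring and 293 and 295 CPM in control offspring. Ptprc averaged 267 and 303 CPM in MIA offspring and 246 and 292 CPM in control offspring. By the test given below, 7 of the 10 markers fell and 0 rose in each. Of all genes, 18.3% fell in MIA offspring and 21.3% in control offspring. The markers summed to 4922 to 7233 CPM after LPS and 13060 to 15630 CPM after saline in MIA offspring, and 5383 to 6838 CPM after LPS and 11890 to 15960 CPM after saline in control offspring. Nothing in the labels says that replicates of a group came from separate litters: a p-value here speaks of the spread between libraries, which may in part be technical.

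The promoters below are shown because they belong to the genes at the turning points of the response: the gene that rose most (Pfkfb3), the pair of lactate dehydrogenase genes that moved in opposite directions, and the gene that fell most (Pdk1). Each is 250 bases before to 50 bases after a RefSeq transcription start in GRCm38.p6, read 5′ to 3′ on the strand of the gene. Capitals mark ACGTG or GCGTG, the core of the hypoxia response element, on either strand. The windows lie at chr2:11553880-11554179 on the minus strand for Pfkfb3, chr7:46845554-46845853 on the plus strand for Ldha, chr6:142507908-142508207 on the minus strand for Ldhb and chr2:71872974-71873273 on the plus strand for Pdk1.
Pfkfb3: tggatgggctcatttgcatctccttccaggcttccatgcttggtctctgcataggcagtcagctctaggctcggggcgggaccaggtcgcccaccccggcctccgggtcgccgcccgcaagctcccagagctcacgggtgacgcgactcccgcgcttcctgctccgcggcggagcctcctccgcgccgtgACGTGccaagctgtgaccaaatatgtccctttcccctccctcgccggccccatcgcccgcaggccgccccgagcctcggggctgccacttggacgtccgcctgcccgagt
Ldha: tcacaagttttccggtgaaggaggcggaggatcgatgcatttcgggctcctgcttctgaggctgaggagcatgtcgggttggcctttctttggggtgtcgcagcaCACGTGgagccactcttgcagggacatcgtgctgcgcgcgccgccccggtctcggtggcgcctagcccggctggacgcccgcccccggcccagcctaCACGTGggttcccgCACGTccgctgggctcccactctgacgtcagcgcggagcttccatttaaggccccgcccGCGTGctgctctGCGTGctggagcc
Ldhb: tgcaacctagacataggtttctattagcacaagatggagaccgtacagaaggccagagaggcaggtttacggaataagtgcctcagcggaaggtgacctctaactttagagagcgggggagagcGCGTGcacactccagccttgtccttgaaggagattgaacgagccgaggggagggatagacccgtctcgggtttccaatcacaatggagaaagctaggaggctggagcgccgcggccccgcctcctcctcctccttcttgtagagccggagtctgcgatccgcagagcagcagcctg
Pdk1: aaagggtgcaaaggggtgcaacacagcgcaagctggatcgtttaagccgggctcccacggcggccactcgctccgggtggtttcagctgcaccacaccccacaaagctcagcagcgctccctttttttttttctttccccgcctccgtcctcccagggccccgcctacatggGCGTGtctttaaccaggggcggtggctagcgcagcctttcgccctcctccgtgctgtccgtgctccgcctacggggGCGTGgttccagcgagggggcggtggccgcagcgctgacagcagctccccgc

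Counted on both strands, the Ldha window held 5 matches to ACGTG and 2 to GCGTG, and 2 of its sites were the E-box CACGTG, which contains ACGTG and is the same on either strand. The Pfkfb3 window held 1 match to ACGTG and none to GCGTG. No match to ACGTG was in the windows of Ldhb and Pdk1, which held 1 and 2 matches to GCGTG. Pfkfb3, Ldha and Pdk1 have a further window each in the table, not printed here. The table covers all 32 genes with 48 windows of this length, of 32851 for all genes. Of the 48, ACGTG was in 45.8%, against 19.6% of all windows, and GCGTG was in 58.3%, against 32.4% of all. Either core was in 81.2% of the windows of these genes, against 43.8% of all, and 29 of the 32 genes had at least 1 window with it. The share of all genes with at least 1 such window was not counted. Some of the 32 genes have several windows, and some of these windows overlap. The E-box CACGTG was in 12.5%, against 7.15% of all, and the kappa B motif, GGG and CC with any 5 bases between them, was in 70.8%, against 50.8% of all. The windows of these genes were also richer in G and C, with a median of 60.7% against 52.7% over all windows, and the part of this in the counts of matches was not tested. A match is a string of letters and does not show that a factor binds there. Windows with a core were found among genes that rose, that fell and that did neither, and Gpi1, Rpe and Tpi1 had none.

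LPS raised more of these genes than it lowered. In MIA offspring, 17 of the 32 genes rose, 3 fell and 12 did not pass the test (edgeR's quasi-likelihood test, Benjamini-Hochberg adjusted p under 0.05 over all 14741 genes tested, which holds for every call below). In the same comparison 39.1% of all genes tested were called, 20.8% higher and 18.3% lower. In control offspring, 16 rose, 4 fell and 12 did not pass, beside 44.6% of all genes called, 23.3% higher and 21.3% lower. The share of these genes that rose was above the background in both, and the share that fell was below it. The median log2 fold change of the 32 was 0.57 in MIA offspring and 0.44 in control offspring, against 0.02 and -0.003 over all genes tested.

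Which genes rose was nearly the same list after either maternal exposure. Of the 17 that rose in MIA offspring and the 16 that rose in control offspring, 15 were shared, which is 88.2% and 93.8% of these lists. Slc16a1 and Taldo1 were called higher in MIA offspring alone and Pgls in control offspring alone. All 3 genes that fell in MIA offspring (Hk3, Ldhb, Pdk1) also fell in control offspring, where Hk1 fell too. The sign of the change was the same in both for all 32 genes. Shared calls and shared signs were not counted over all genes tested. Whether this agreement is particular to these genes was thus not tested. Libraries after LPS lay wholly above those after saline for 12 genes in MIA offspring and 11 in control offspring, and wholly below for 3 and 4. Over all genes tested, groups did not overlap in these ways for 18.5% and 15.1% (higher) and 18.0% and 13.9% (lower).

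**Figure D1:**
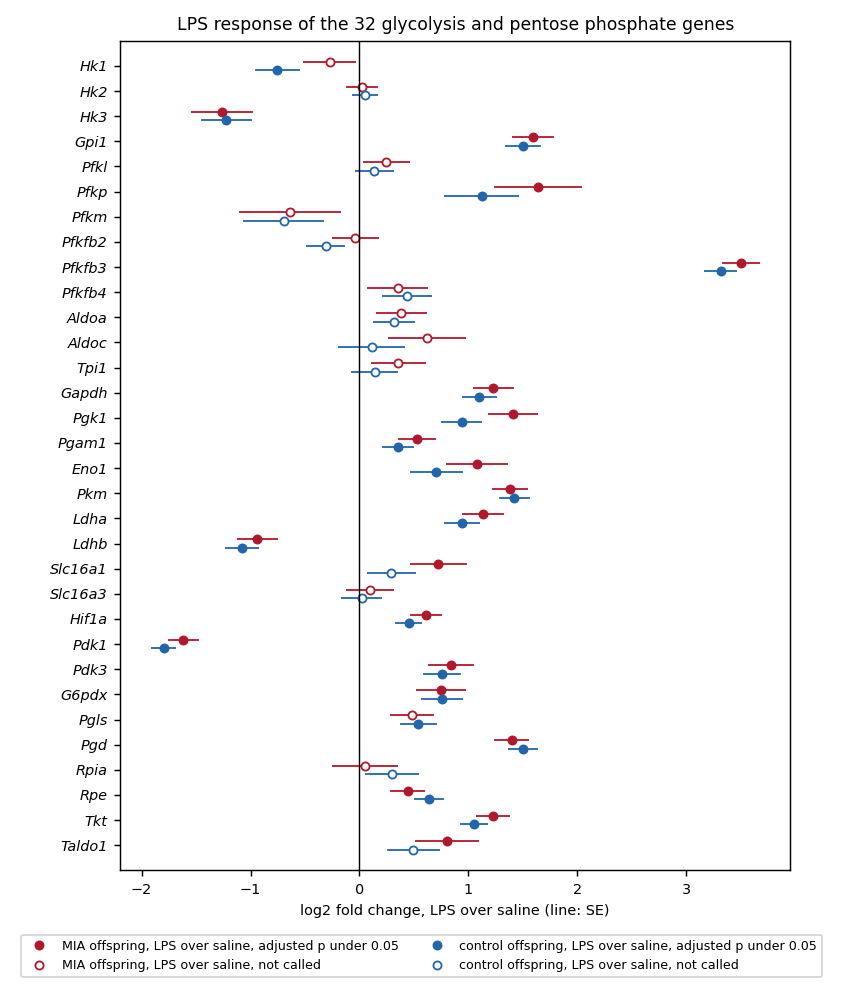
Log2 fold change of LPS over saline for each of the 32 genes (rows, in pathway order), with its SE as a line, in MIA offspring (red) and control offspring (blue). Filled points passed the test at an adjusted p under 0.05, and Pfkfb3 stands farthest to the right at 3.50 and 3.32 while Pdk1 stands farthest to the left at -1.62 and -1.80.

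Markers of other cells moved with LPS too. The summed level of 7 monocyte markers was 36.1 to 61.0 CPM after LPS and 2.81 to 5.94 CPM after saline in MIA offspring, and 38.8 to 80.0 CPM after LPS and 3.80 to 6.41 CPM after saline in control offspring. Of the 7 markers 6 rose and 1, Ccr2, fell in both. The neutrophil list summed to 99.8 to 202 CPM after LPS and 172 to 196 CPM after saline in MIA offspring, and to 113 to 177 CPM and 157 to 232 CPM in control offspring. Of its 9 measured members 8 rose and 1 fell in MIA offspring, and 7 rose and 1 fell in control offspring. The member that fell was Csf3r, which microglia also express, at a mean of 57.4 CPM after LPS and 184 CPM after saline in MIA offspring. The defining neutrophil genes Retnlg and Mmp8 averaged 2.05 and 3.66 CPM in MIA offspring after LPS, 1.90 and 2.97 CPM in control offspring after LPS, and 0 CPM after saline in both. Astrocyte markers summed to 128.5 to 222 CPM after LPS and 166 to 255 CPM after saline in MIA offspring, and to 106 to 148.5 CPM after LPS and 171 to 265 CPM after saline in control offspring. Of the 6 measured, Gfap rose and Slc1a3 fell in both. Endothelial and mural markers summed to 10.4 to 15.1 CPM after LPS and 15.3 to 21.6 CPM after saline in MIA offspring, and to 7.98 to 14.5 CPM after LPS and 19.1 to 28.0 CPM after saline in control offspring, and Pecam1 alone of the 4 measured was called, lower in both. Among 7 border-associated macrophage markers, F13a1 rose and Mrc1 fell in both, and Lyve1 fell in MIA offspring; among 7 oligodendrocyte markers, Cnp fell in control offspring. None of the 7 neuron markers measured was called. The part of any of these cells in the results below was not tested.

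None of the 3 hexokinases, which trap glucose in the cell by phosphorylating it, was called higher, while 1 fell in MIA offspring and 2 fell in control offspring. Per kilobase of exons, Hk2 was the most abundant of the 3 in every group, at 16.3 CPM per kb in MIA offspring after saline, where Hk3 was at 8.93 and Hk1, the constitutive form of brain, at 0.602. Hk3, the form typical of myeloid cells, fell in both. Its level was 19.0, 8.39 and 13.8 CPM in MIA offspring after LPS, against 35.9, 41.1, 29.1, 27.0 and 31.2 CPM after saline. In control offspring it was at 20.5, 6.43, 16.7, 12.1 and 12.5 CPM after LPS, against a lowest of 22.7, a median of 31.3 and a highest of 42.5 CPM after saline. No LPS library reached the lowest saline library in either. The log2 fold change was -1.26 ± 0.29 (SE, adjusted p = 0.00115) in MIA offspring and -1.22 ± 0.23 (adjusted p = 0.000149) in control offspring.

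Hk2, the inducible form, did not pass the test. It was at 99.6, 78.9 and 118 CPM in MIA offspring after LPS, against 107, 112, 92.4, 82.2 and 92.3 CPM after saline. Control offspring had 114, 92.8, 101, 92.0 and 85.3 CPM after LPS, against 83.9, 90.1 and 106 CPM (lowest, median and highest) after saline. The groups overlapped, and the log2 fold changes were 0.02 ± 0.14 and 0.05 ± 0.12 (SE). The 95% interval of the change in control offspring ran from -0.20 to 0.31. Hk1 was at 5.33, 3.91 and 3.57 CPM in MIA offspring after LPS, against 5.00, 4.74, 5.94, 4.89 and 5.13 CPM after saline, and these groups overlapped. The control levels were 2.11, 3.79, 3.01, 4.09 and 4.33 CPM after LPS, against 4.74, 5.76 and 7.29 CPM (lowest, median and highest) after saline, with no overlap. Its log2 fold change was -0.27 ± 0.25 in MIA offspring (adjusted p = 0.406) and -0.75 ± 0.20 in control offspring (adjusted p = 0.00376). The difference between these responses was 0.48 with a 95% interval from -0.19 to 1.16, and was not called.

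Gpi1, the isomerase that turns the product of hexokinase into the substrate of phosphofructokinase, rose in both. Its level was 119, 53.0 and 143 CPM in MIA offspring after LPS, against 37.8, 39.7, 32.3, 32.9 and 31.7 CPM after saline. Among control offspring, levels were 109, 89.8, 88.6, 103 and 99.0 CPM after LPS, against 28.8, 33.6 and 41.9 CPM (lowest, median and highest) after saline. Every LPS library was above every saline library, and replicate 2 was the lowest of the MIA LPS libraries. The log2 fold change was 1.59 ± 0.19 (SE, adjusted p = 3.25e-07) in MIA offspring and 1.51 ± 0.17 (adjusted p = 3.97e-08) in control offspring.

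Of the phosphofructokinases, which catalyse the committed step, the abundant form did not pass the test and a rare form rose. Per kilobase, Pfkl was at 3.60 CPM per kb in MIA offspring after saline, Pfkm at 0.461 and Pfkp at 0.110. Pfkl was at 31.4, 16.6 and 37.7 CPM in MIA offspring after LPS, against 24.7, 24.8, 21.7, 19.8 and 29.2 CPM after saline. The control levels were 36.9, 23.3, 33.0, 22.5 and 19.8 CPM after LPS, against 19.8, 24.5 and 30.2 CPM (lowest, median and highest) after saline. Its groups overlapped in both. Its log2 fold changes of 0.25 ± 0.22 and 0.14 ± 0.18 (SE) were not called, and with 1 library left out the MIA value ran from -0.01 (without MIA LPS replicate 3) to 0.52 (without replicate 2, called higher). With no batch term it was 0.88 and called higher. Pfkp was at 4.40, 5.28 and 4.09 CPM in MIA offspring after LPS, against 1.58, 1.37, 1.49, 1.38 and 1.53 CPM after saline. In control offspring it was at 2.22, 2.59, 1.97, 5.03 and 2.97 CPM after LPS, against 0.678, 1.04 and 3.06 CPM (lowest, median and highest) after saline. The groups were apart in MIA offspring and overlapped in control offspring, where 4 of 5 LPS libraries were below the highest saline library. Pfkp rose with a log2 fold change of 1.64 ± 0.40 (SE, adjusted p = 0.00185) in MIA offspring and 1.12 ± 0.34 (adjusted p = 0.00956) in control offspring. Without control LPS replicate 4, the control value was 0.84 with an adjusted p of 0.0603. Pfkm, the muscle form, averaged 0.997 CPM after LPS and 1.54 CPM after saline in MIA offspring, and 1.27 and 2.06 CPM in control offspring, and was not called.

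Pfkfb3 rose most of the 32. It encodes the inducible enzyme that makes the allosteric activator of phosphofructokinase, and lies at chromosome 2, bases 11471433 to 11554077, minus strand (GRCm38). Its level was 819, 1265 and 1084 CPM in MIA offspring after LPS, against 94.5, 111, 88.6, 79.4 and 91.9 CPM after saline. Control offspring had 725, 1080, 701, 889 and 952 CPM after LPS, against 67.4, 88.9 and 101 CPM (lowest, median and highest) after saline. The lowest LPS library was more than 6 times the highest saline library in each pair of groups. The log2 fold change was 3.50 ± 0.17 (SE, adjusted p = 5.20e-14) in MIA offspring and 3.32 ± 0.15 (adjusted p = 4.40e-15) in control offspring, which is 11.3-fold and 9.96-fold. Pfkfb3 alone made up 31.8% of the summed CPM of the 32 genes in MIA offspring after LPS and 6.10% after saline, and 29.2% and 5.70% in control offspring.

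Pfkfb2 and Pfkfb4, enzymes of the same family, did not pass the test. Pfkfb2 was at 7.44, 7.16 and 5.68 CPM in MIA offspring after LPS and 5.61, 5.30, 9.11, 6.40 and 8.13 CPM after saline. The control levels were 4.93, 6.91, 6.54, 7.44 and 7.53 CPM after LPS and 7.28, 7.91 and 9.45 CPM (lowest, median and highest) after saline. Its log2 fold changes of -0.04 ± 0.22 and -0.31 ± 0.18 (SE) were not called. Pfkfb4 was at 28.8, 11.7 and 18.0 CPM in MIA offspring after LPS and 14.8, 20.9, 10.7, 16.2 and 13.7 CPM after saline. Among control offspring, levels were 26.3, 24.0, 17.7, 17.4 and 23.4 CPM after LPS and 10.8, 14.3 and 26.5 CPM (lowest, median and highest) after saline. The highest saline library, control replicate 5, was above every control LPS library, and the log2 fold changes of 0.35 ± 0.28 and 0.43 ± 0.23 were not called. Without that library Pfkfb4 was called higher in control offspring, at 0.63.

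**Figure D2:**
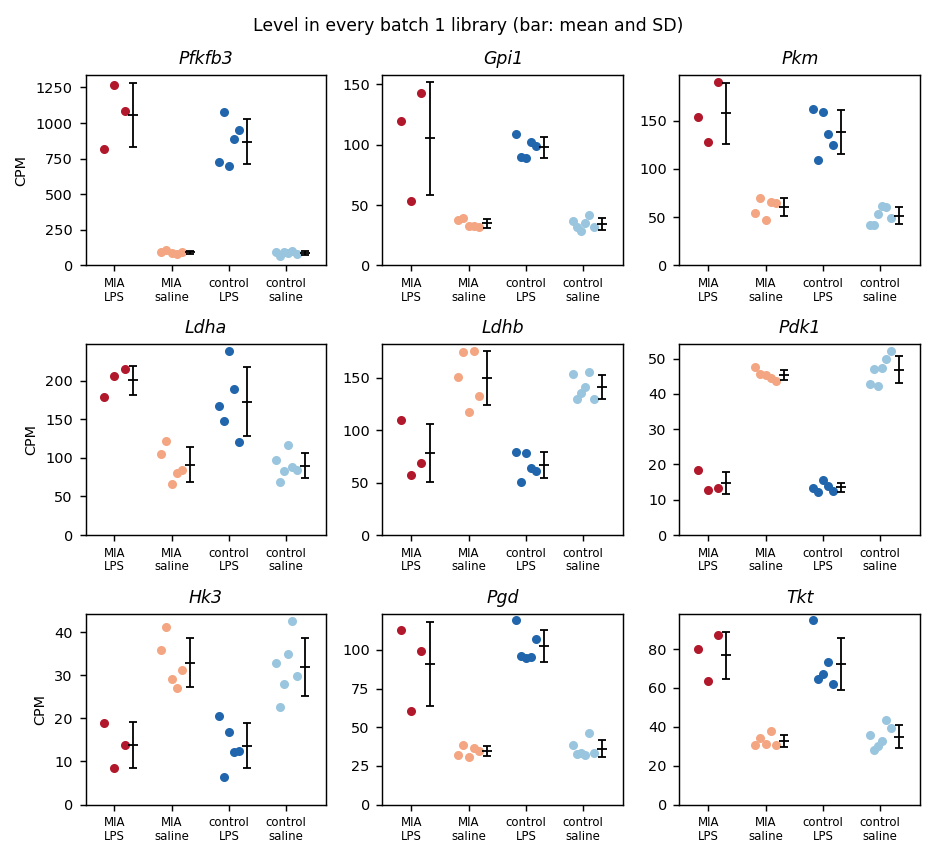
Level (CPM, linear axis from 0) of 9 genes in every batch 1 library of the 4 groups, with the mean and SD beside the points. LPS libraries stand above saline libraries for Pfkfb3, Gpi1, Pkm, Ldha, Pgd and Tkt and below them for Ldhb, Pdk1 and Hk3.

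The middle steps did not pass the test and the lower steps rose, and the difference between these steps was not tested. Aldoa, the abundant aldolase at 76.7 CPM per kb in MIA offspring after saline, averaged 292 ± 111 CPM after LPS and 223 ± 40.0 CPM after saline in MIA offspring, and 285 ± 85.1 and 228 ± 32.3 CPM in control offspring (SD). Tpi1, which interconverts the trioses, averaged 56.9 ± 23.6 and 44.4 ± 11.1 CPM in MIA offspring and 52.5 ± 14.5 and 47.6 ± 8.15 CPM in control offspring. The log2 fold changes of Aldoa were 0.39 ± 0.23 and 0.32 ± 0.19 (SE), and those of Tpi1 were 0.36 ± 0.25 and 0.14 ± 0.21. Without MIA LPS replicate 2, Aldoa and Tpi1 were called higher in MIA offspring, at log2 fold changes of 0.67 and 0.66, while Aldoa was at 0.19 without replicate 3 and Tpi1 at 0.10 without replicate 1, neither called. Aldoc, the aldolase of astrocytes, averaged 4.85 CPM after LPS and 3.17 CPM after saline in MIA offspring, and 2.57 and 2.38 CPM in control offspring, and was not called. Its MIA value was 0.06 (adjusted p = 0.921) without MIA LPS replicate 2 and 1.02, called higher, without replicate 1.

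All 5 genes from Gapdh to Pkm rose in both. Gapdh, which oxidises the triose phosphate, was at 414, 267 and 471 CPM in MIA offspring after LPS, against 167, 198, 125, 163 and 165 CPM after saline. In control offspring it was at 381, 271, 453, 425 and 303 CPM after LPS, against 133, 175 and 206 CPM (lowest, median and highest) after saline. The groups did not overlap, and the log2 fold change was 1.23 ± 0.19 (SE, adjusted p = 7.98e-06) in MIA offspring and 1.10 ± 0.16 (adjusted p = 2.64e-06) in control offspring. Pgk1, the first of the ATP-making steps, was at 63.8, 39.5 and 65.9 CPM in MIA offspring after LPS, against 24.5, 30.1, 15.9, 20.4 and 15.3 CPM after saline. Control offspring had 44.4, 35.1, 63.7, 51.3 and 31.3 CPM after LPS, against 19.1, 23.0 and 27.9 CPM (lowest, median and highest) after saline. These groups were also apart, with log2 fold changes of 1.41 ± 0.23 (adjusted p = 2.03e-05) and 0.94 ± 0.19 (adjusted p = 0.000273).

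Pkm, the pyruvate kinase and the last ATP-making step, was at 154, 128 and 190 CPM in MIA offspring after LPS, against 54.0, 70.1, 47.5, 65.6 and 64.3 CPM after saline. The control levels were 162, 109, 159, 136 and 125 CPM after LPS, against 42.1, 51.3 and 62.1 CPM (lowest, median and highest) after saline. No LPS library overlapped a saline library. Its log2 fold change was 1.39 ± 0.17 (SE, adjusted p = 2.43e-07) in MIA offspring and 1.42 ± 0.14 (adjusted p = 7.28e-09) in control offspring. Counts are per gene, so the M1 and M2 splice forms of Pkm cannot be told apart here.

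Eno1, the enolase, rose less evenly. It was at 245, 76.0 and 248 CPM in MIA offspring after LPS, against 103, 115, 67.0, 74.4 and 90.6 CPM after saline. Among control offspring, levels were 176, 120, 191, 189 and 121 CPM after LPS, against 70.4, 91.5 and 130 CPM (lowest, median and highest) after saline. Groups overlapped in both: MIA LPS replicate 2 was within the saline range, and control LPS replicates 2 and 5 were below the highest saline library. The log2 fold change was 1.08 ± 0.29 (SE, adjusted p = 0.00487) in MIA offspring and 0.71 ± 0.24 (adjusted p = 0.0216) in control offspring. The call was lost in MIA offspring without MIA LPS replicate 3 (0.84, adjusted p = 0.0522) and in control offspring under 4 of 32 other settings: without control LPS replicate 3 (0.61, adjusted p = 0.0616) or 4 (0.64, adjusted p = 0.0546), with the replicate number as a block (0.67, adjusted p = 0.0582) and with no filter on low counts (0.70, adjusted p = 0.0700). Pgam1, the mutase, averaged 66.3 ± 15.6 CPM after LPS and 46.0 ± 7.47 CPM after saline in MIA offspring, and 60.6 ± 13.8 and 47.4 ± 3.94 CPM in control offspring (SD). Its log2 fold change was 0.53 ± 0.17 (adjusted p = 0.0158) and 0.35 ± 0.14 (adjusted p = 0.0468), and the control call was lost under 22 of 32 other settings, with log2 fold changes of 0.27 to 0.46 over all of them. The MIA call was lost without MIA LPS replicate 3, at 0.32. A near-identical copy, Pgam1-ps2, held 19% of the counts that Pgam1 and the copy share, so the level of Pgam1 is uncertain. The shares on copies were 2.29% for Pgk1, 2.19% for Eno1 and at most 0.156% for the other genes.

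**Figure D3:**
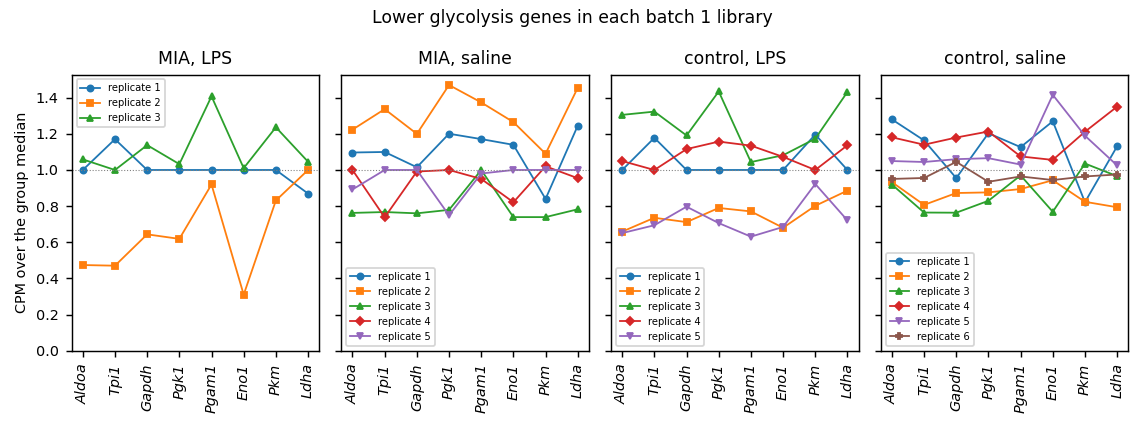
CPM of 8 genes from Aldoa to Ldha in each batch 1 library, divided by the median of its group for that gene (dotted line at 1), with 1 panel per group and 1 line per replicate. Lines of a replicate tend to stay on the same side: control LPS replicates 2 and 5 lie below the group median for all 8 genes.

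The 8 genes from Aldoa to Ldha varied together between libraries of a group. In MIA offspring after LPS, replicate 2 was below the group median for 7 of the 8, and their summed level was 966 CPM there against 1537 and 1705 CPM in the other batch 1 libraries. That library was the lowest of its group for 22 of all 32 genes. It also had the highest summed level of astrocyte markers among LPS libraries of batch 1, 222 CPM against 106 to 148.5 CPM in the others, and of oligodendrocyte markers, 90.1 CPM against 31.2 to 55.3 CPM. The part of these cells in its values was not tested. Over the 12791 genes that averaged at least 1 CPM, 42.8% were below the group median in it, against 29.8% and 27.1% in the others. In MIA offspring after saline, replicate 2 was above the group median for all 8 genes and replicate 3 below it for 7. Over the same 12791 genes, 39.3% and 44.7% were below the group median in these libraries, against 37.0% to 39.0% in the others. In control offspring after LPS, replicates 2 and 5 were below the group median for all 8, at summed levels of 974 and 978 CPM against 1365 to 1644 CPM in the others. Over all those genes, 40.5% and 41.4% were below the group median in these libraries, against 37.0% to 41.4% in the others of the group. In control offspring after saline, replicates 4 and 5 were above it for all 8 and replicate 2 below it for all 8. Over all those genes, 48.4%, 46.2% and 52.5% were below the group median in replicates 4, 5 and 2. The other libraries of that group had 48.7% to 52.9%. The genes share libraries and were chosen as neighbours in the pathway, so these counts are a description.

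The pair of lactate dehydrogenase genes moved in opposite directions. Ldha encodes the subunit that favours making lactate and lies at chromosome 7, bases 46841475 to 46855627, plus strand (GRCm38). It was at 179, 206 and 216 CPM in MIA offspring after LPS, against 105, 122, 65.7, 80.1 and 83.9 CPM after saline. In control offspring it was at 167, 148, 239, 190 and 120 CPM after LPS, against 68.3, 86.0 and 116 CPM (lowest, median and highest) after saline. The groups did not overlap, though the lowest control LPS library was close to the highest saline library. Its log2 fold change was 1.13 ± 0.20 (SE, adjusted p = 4.32e-05) in MIA offspring and 0.95 ± 0.17 (adjusted p = 3.90e-05) in control offspring.

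Ldhb encodes the subunit typical of tissues that use lactate and lies at chromosome 6, bases 142490249 to 142507957, minus strand. It was at 109, 57.2 and 68.5 CPM in MIA offspring after LPS, against 150, 175, 117, 176 and 133 CPM after saline. Control offspring had 79.1, 50.8, 78.3, 63.8 and 61.5 CPM after LPS, against 130, 139 and 155 CPM (lowest, median and highest) after saline. The groups did not overlap, and the log2 fold change was -0.94 ± 0.19 (SE, adjusted p = 0.000236) in MIA offspring and -1.08 ± 0.15 (adjusted p = 2.11e-06) in control offspring. Per kilobase, Ldha averaged 60.5 CPM per kb and Ldhb 49.9 in MIA offspring after LPS, and 27.6 and 95.5 after saline. In control offspring Ldha averaged 52.1 and Ldhb 42.5 CPM per kb after LPS, and 27.0 and 89.7 after saline. After LPS the order of the means was thus reversed. The SDs after LPS were 5.70 for Ldha and 17.5 for Ldhb in MIA offspring, and 13.6 and 7.65 in control offspring. These spreads overlapped, and the order within single libraries was not compared on this scale.

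The lactate carriers gave no call that held in both. Slc16a1 (MCT1) averaged 12.4 ± 5.82 CPM after LPS and 7.51 ± 0.927 CPM after saline in MIA offspring, and 9.62 ± 2.93 and 7.90 ± 1.80 CPM in control offspring (SD). Its log2 fold change was 0.72 ± 0.26 (SE, adjusted p = 0.0315) in MIA offspring and 0.29 ± 0.22 (adjusted p = 0.303) in control offspring. Replicate 2 was the highest MIA LPS library, at 18.4 CPM, and without it the value was 0.33 and was not called. The call was lost under 10 of 32 other settings in all, among them without MIA LPS replicate 3 or MIA saline replicate 3, 4 or 5. Slc16a3 (MCT4), the lactate exporter of glycolytic cells, averaged 15.6 and 14.6 CPM in MIA offspring and 13.0 and 12.9 CPM in control offspring, and its log2 fold changes of 0.10 ± 0.22 and 0.02 ± 0.19 were not called. The 95% interval of the change ran from -0.38 to 0.41 in control offspring.

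Pdk1 fell most of the 32. It encodes a kinase that switches off pyruvate dehydrogenase and lies at chromosome 2, bases 71873224 to 71903858, plus strand. Its level was 18.4, 12.8 and 13.2 CPM in MIA offspring after LPS, against 47.7, 45.7, 45.4, 44.5 and 43.7 CPM after saline. The control levels were 13.2, 12.3, 15.6, 14.0 and 12.4 CPM after LPS, against 42.4, 47.2 and 52.1 CPM (lowest, median and highest) after saline. The groups did not overlap. The log2 fold change was -1.62 ± 0.14 (SE, adjusted p = 1.71e-09) in MIA offspring and -1.80 ± 0.12 (adjusted p = 3.62e-12) in control offspring.

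Pdk3, a kinase of the same family, rose. It was at 16.5, 12.01 and 17.8 CPM in MIA offspring after LPS, against 7.63, 11.7, 5.81, 7.50 and 10.4 CPM after saline. Among control offspring, levels were 15.2, 14.6, 14.3, 20.2 and 12.5 CPM after LPS, against 7.99, 8.98 and 10.9 CPM (lowest, median and highest) after saline. The groups did not overlap, with log2 fold changes of 0.84 ± 0.21 (SE, adjusted p = 0.00195) in MIA offspring and 0.76 ± 0.17 (adjusted p = 0.000765) in control offspring. Per kilobase, Pdk3 averaged 6.02 CPM per kb and Pdk1 1.90 in MIA offspring after LPS, and 3.36 and 5.84 after saline, and the order was the same in control offspring (6.00 and 1.74 after LPS, 3.54 and 6.03 after saline). Hif1a, the oxygen-regulated factor that activates many glycolytic genes and Pdk1, averaged 135 ± 28.1 CPM after LPS and 88.5 ± 4.98 CPM after saline in MIA offspring, and 120 ± 17.7 and 88.1 ± 11.6 CPM in control offspring (SD). It rose in both, by log2 fold changes of 0.61 ± 0.15 (SE, adjusted p = 0.00143) and 0.45 ± 0.12 (adjusted p = 0.00379).

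Ratios of isoforms within a library do not depend on how libraries are scaled. Of 10 ratios of counts tested with exact two-sided permutation tests over batch 1 libraries, 5 changed with LPS in MIA offspring and 5 in control offspring. The smallest p the design allows is 0.0179 in MIA offspring (56 splits) and 0.00216 in control offspring (462 splits), and p was adjusted over the 10 ratios of a comparison. The Pfkfb3/Pfkfb2 ratio rose by 3.50 on the log2 scale in MIA offspring (adjusted p = 0.0357, exact permutation test) and by 3.62 in control offspring (adjusted p = 0.00541). Ldhb/Ldha averaged -1.41 ± 0.61 after LPS and 0.73 ± 0.26 after saline in MIA offspring, and -1.35 ± 0.31 and 0.67 ± 0.22 in control offspring (log2, SD). It fell by 2.14 (adjusted p = 0.0357) and by 2.02 (adjusted p = 0.00541), and was above 0 in every saline library and below 0 in every LPS library. The ratio is one of counts, not corrected for exon length (1570 bases for Ldhb and 3310 for Ldha). On this scale 0 thus does not mark equal levels. Pdk3/Pdk1 rose by 2.50 (adjusted p = 0.0357) and by 2.54 (adjusted p = 0.00541).

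Which other ratios were called differed between the maternal groups, and the differences between them were not tested. In MIA offspring Hk3/Hk1 fell by 1.03 and Pfkp/Pfkl rose by 1.44 (adjusted p = 0.0357 each, exact permutation test), against changes of -0.51 (adjusted p = 0.295) and 1.12 (adjusted p = 0.0649) in control offspring. In control offspring Hk2/Hk1 rose by 0.83 (adjusted p = 0.00541) and Pfkfb4/Pfkfb2 by 0.80 (adjusted p = 0.0260), against changes of 0.30 (adjusted p = 0.380) and 0.30 (adjusted p = 0.615) in MIA offspring. Ratios of Pfkm/Pfkl, Aldoc/Aldoa and Slc16a3/Slc16a1 were called in neither. With any 1 library left out, no ratio was called in MIA offspring, because the remaining splits are too few: 21 or 35, for a smallest p of 0.0476 or 0.0286. The 5 MIA ratios kept their sign in each of those 8 sets, and the 5 control ratios kept both sign and call in each of their 11.

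**Figure D4:**
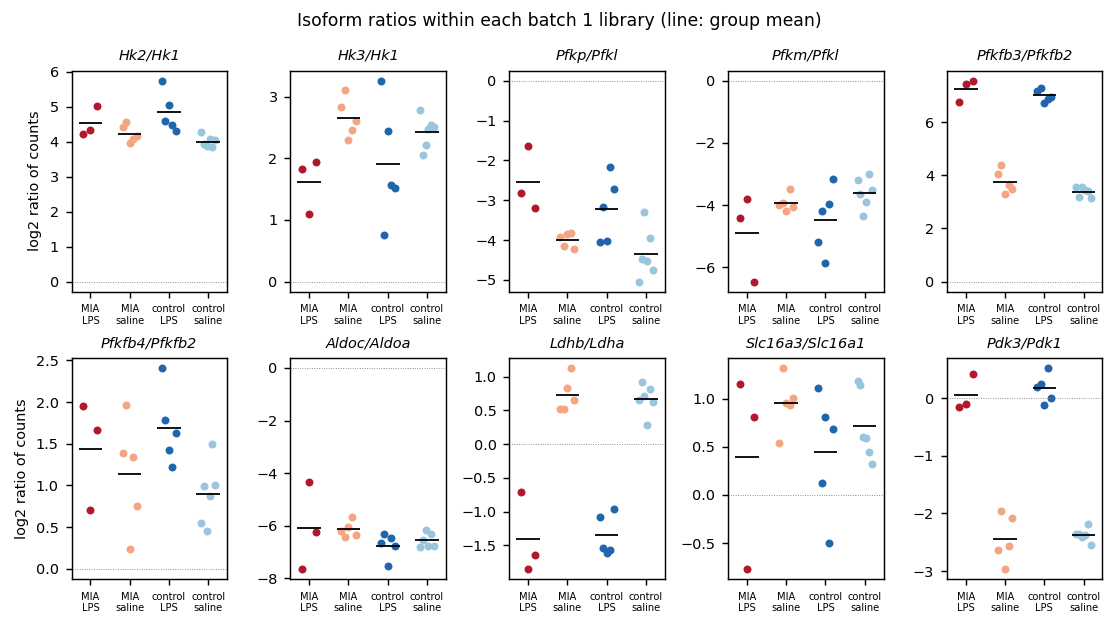
Log2 ratio of counts of 10 isoform pairs in each batch 1 library (points) of the 4 groups, with group means as lines and 0 as a dotted line where it is in range. LPS and saline libraries are wholly apart for Pfkfb3/Pfkfb2, Ldhb/Ldha and Pdk3/Pdk1 in both maternal groups.

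In the oxidative arm of the pentose phosphate pathway, all 3 genes rose in control offspring and 2 of 3 in MIA offspring. Pgd, which makes the second NADPH of the arm, was at 113, 60.3 and 99.4 CPM in MIA offspring after LPS, against 32.2, 38.3, 30.5, 36.5 and 34.8 CPM after saline. In control offspring it was at 119, 96.2, 94.8, 95.6 and 107 CPM after LPS, against 32.2, 33.4 and 46.5 CPM (lowest, median and highest) after saline. No groups overlapped, and the log2 fold change was 1.40 ± 0.16 (SE, adjusted p = 1.14e-07) in MIA offspring and 1.50 ± 0.14 (adjusted p = 1.32e-09) in control offspring. G6pdx, the entry enzyme and the first NADPH-making step, averaged 30.2 ± 13.0 CPM after LPS and 18.0 ± 4.35 CPM after saline in MIA offspring, and 33.0 ± 4.13 and 19.5 ± 3.63 CPM in control offspring (SD). It rose by log2 fold changes of 0.75 ± 0.23 (adjusted p = 0.0112) and 0.76 ± 0.19 (adjusted p = 0.00225), and the MIA call was lost without MIA LPS replicate 1 (0.63) or 3 (0.50). Pgls, the lactonase between them, averaged 42.0 ± 18.6 and 30.0 ± 4.58 CPM in MIA offspring and 42.0 ± 2.85 and 28.8 ± 5.68 CPM in control offspring. Its log2 fold change was 0.48 ± 0.20 (adjusted p = 0.0599) and 0.54 ± 0.17 (adjusted p = 0.0105), and the MIA value was 0.11 (adjusted p = 0.705) without MIA LPS replicate 1 and 0.76, called, without replicate 2. It was also called in MIA offspring under 5 other settings, at 0.47 to 0.64.

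In the non-oxidative arm, transketolase rose and the isomerase did not pass the test. Tkt was at 79.9, 63.6 and 87.0 CPM in MIA offspring after LPS, against 30.5, 34.5, 31.0, 37.7 and 30.4 CPM after saline. Control offspring had 94.9, 64.5, 67.3, 73.1 and 61.8 CPM after LPS, against 28.0, 34.1 and 43.4 CPM (lowest, median and highest) after saline. All LPS libraries were above all saline libraries, with log2 fold changes of 1.23 ± 0.16 (SE, adjusted p = 5.55e-07) and 1.05 ± 0.13 (adjusted p = 2.95e-07). Rpe, the epimerase, averaged 22.0 ± 2.94 CPM after LPS and 16.2 ± 1.35 CPM after saline in MIA offspring, and 23.6 ± 3.35 and 15.1 ± 2.58 CPM in control offspring (SD). It rose by log2 fold changes of 0.44 ± 0.16 (adjusted p = 0.0308) and 0.64 ± 0.13 (adjusted p = 0.000356), and the MIA call was lost under 11 of 32 other settings, among them without MIA LPS replicate 2 (0.37) or 3 (0.41) and without MIA saline replicate 1 or 3. Taldo1, transaldolase, averaged 32.7 ± 15.5 and 18.7 ± 4.79 CPM in MIA offspring, where its log2 fold change of 0.81 ± 0.29 was called (adjusted p = 0.0340). That call was lost under 6 of 32 other settings, with the value at 0.42 without MIA LPS replicate 1. In control offspring it averaged 30.4 ± 5.63 CPM after LPS and 21.5 ± 7.74 CPM after saline, and 0.50 ± 0.25 was not called (0.68 and called without control saline replicate 5). Rpia, the isomerase that makes ribose phosphate, averaged 4.88 and 4.71 CPM in MIA offspring and 5.90 and 4.81 CPM in control offspring, with log2 fold changes of 0.05 ± 0.30 and 0.30 ± 0.25.

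None of the 32 genes was called between MIA and control offspring by edgeR or by DESeq2. Over all 14741 genes, DESeq2 called 3 higher and 3 lower after saline and 0 after LPS. The shares of all genes below are from edgeR. After LPS, 0 of 32 passed, beside 0.00% of all genes tested, and the log2 differences ran from -0.36 (Pfkm) to 0.91 (Aldoc) with a median of 0.10. At an unadjusted p under 0.05 there was 1 gene of the 32, Aldoc, beside 5.60% of all genes. Aldoc averaged 4.85 ± 3.17 CPM in MIA offspring after LPS and 2.57 ± 0.714 CPM in control offspring after LPS (SD), at an edgeR p of 0.0167 (adjusted p = 0.812). Replicate 2 was the highest MIA library, at 8.03 CPM, beside 1.69 and 4.82 CPM in the others, and is the one with the highest astrocyte marker sum, 222 CPM. The part of astrocyte RNA in the Aldoc value was not tested.

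After saline, 0 of 32 passed, beside 0.00% of all genes tested, and at an unadjusted p under 0.05 there was none of the 32, beside 2.82% of all genes. Log2 differences ran from -0.42 (Pfkm) to 0.40 (Aldoc) with a median of -0.04. At the median, a 95% interval reached 0.38 to either side after saline and 0.46 after LPS. The ratio of isoforms was called in no comparison of MIA with control offspring, with a smallest adjusted p of 0.346 after saline and 0.804 after LPS (exact permutation tests over 10 ratios).

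The LPS responses themselves were compared in the same fit. The difference, MIA minus control, was called for 0 of 32, beside 0.00% of all genes tested, and none reached an unadjusted p under 0.05, beside 3.33% of all genes. It was above 0 for 23 of the 32 genes, with a median of 0.14, and ran from -0.25 (Rpia) to 0.52 (Pfkp). The median over all genes tested was 0.015, and the share of all genes above 0 was not counted. The 95% interval held 0 for all 32 and reached 0.60 to either side at the median. For Pfkfb3 the difference was 0.19 with an interval from -0.28 to 0.66, and for Pdk1 it was 0.18 with an interval from -0.20 to 0.56. Without single libraries the median of the 32 differences ran from 0.00 to 0.26.

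**Figure D5:**
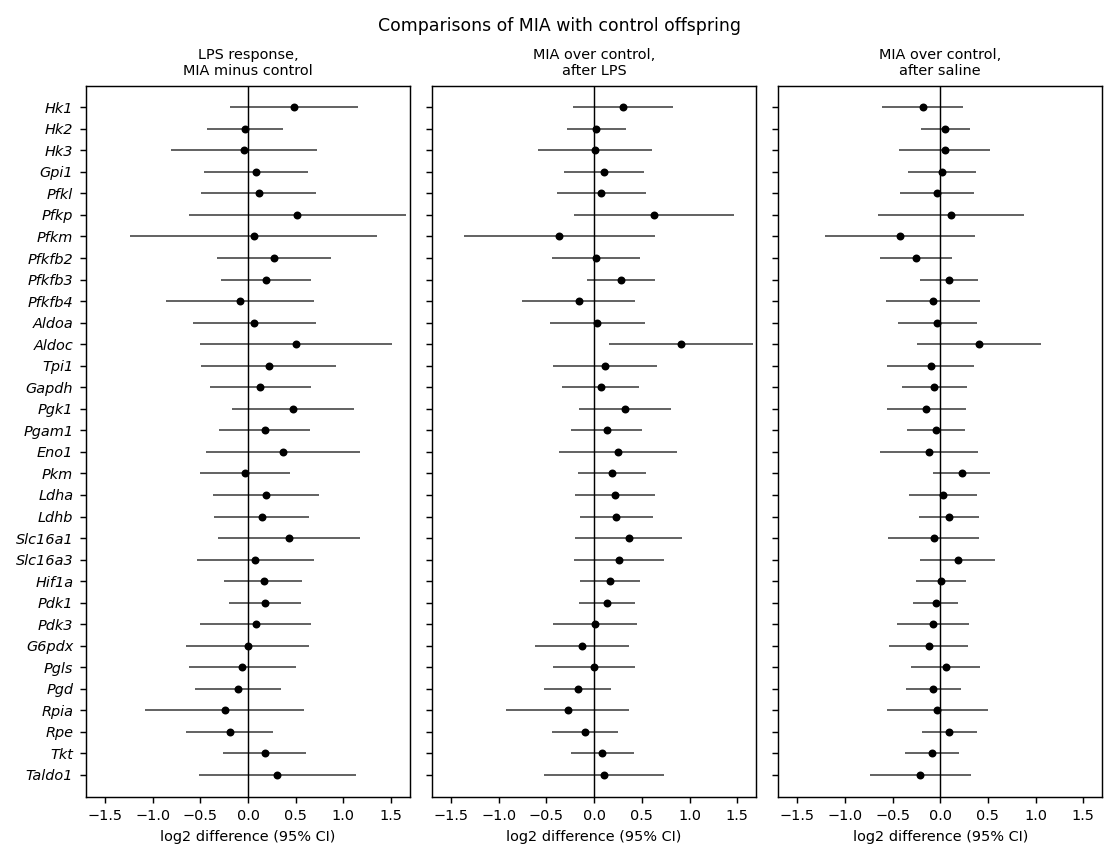
Log2 differences with 95% confidence intervals for the 32 genes (rows): the LPS response in MIA minus control offspring, MIA over control after LPS and MIA over control after saline. Intervals hold 0 in every row of the panels except Aldoc after LPS, whose adjusted p was 0.812.

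The library of batch 2, MIA offspring after LPS replicate 4, stood apart. The batch term takes up its level, but it shares in the filter, the scaling and the estimate of spread. Without it, 17 genes rose and 3 fell in MIA offspring, and 15 rose and 4 fell in control offspring, where Pgam1 lost its call, at 0.33; the median log2 fold change of the 32 was 0.54 in MIA offspring and 0.42 in control offspring. Of the 32 genes it was above the range of the batch 1 libraries of its group for 19, within it for 5 and below it for 8. The same count over all genes was not made. These places rest on levels after TMM scaling. Pgd, for example, had 2413 counts of a total of 11.41 M in the batch 2 library and is given below as 290 CPM. Places on unadjusted totals were not counted for this library. Over the whole table its counts differed from those 3 libraries at a chi-square per degree of freedom of 98.55 to 150.7. Between those 3 the values were 19.33 to 60.6. The batch 2 library had counts for 12285 genes, against 18035 to 19612 in fitted batch 1 libraries. A single gene took 58.1% of its counts. Its neutrophil, monocyte and microglia markers summed to 447, 125 and 8296 CPM. The batch 1 libraries of its group had 99.8 to 202, 36.1 to 61.0 and 4922 to 7233 CPM. Its astrocyte markers summed to 82.35 CPM, below their 128.5 to 222 CPM. The part of these in its values was not tested. Pgd was at 290 CPM in the batch 2 library, Tkt at 262, Pkm at 410, Gapdh at 835 and Pfkfb3 at 1568 CPM, while Pdk1 was at 0.600 CPM and Aldoc at 0 counts. It was thus on the LPS side of the saline libraries for these genes other than Aldoc. Fitted without a batch term, which lets this library in, 18 genes rose and 3 fell in MIA offspring, and 15 rose and 3 fell in control offspring, where Hk1 lost its call (adjusted p = 0.108). In that fit the median log2 difference of MIA over control after LPS was 0.31 for the 32 genes and -0.02 over all genes. None was called, and 8 of the 32 had an unadjusted edgeR p under 0.05, beside 1674 of 14741 genes. The median difference of LPS responses was 0.29 for the 32 and -0.017 over all genes, with none called. Batch and library cannot be told apart.

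Other genes of glucose use were called in either direction with LPS, and the counts below stand beside 20.8% of all genes called higher and 18.3% lower in MIA offspring, and 23.3% higher and 21.3% lower in control offspring. Of the hexose and lactate transport partners, 4 of 10 measured rose and 3 fell in MIA offspring, and 5 rose and 3 fell in control offspring. Emb, the partner protein of lactate carriers, rose by log2 fold changes of 5.36 ± 0.48 and 6.43 ± 0.46 (SE), and Slc2a6, a hexose carrier, by 4.69 ± 0.58 and 4.79 ± 0.50. Slc2a5, the fructose carrier that marks microglia, fell by 5.35 ± 0.28 and 5.75 ± 0.23, and Slc16a7 (MCT2) fell by 2.43 ± 0.20 and 2.12 ± 0.16. Among other isoforms and side enzymes of glycolysis, 5 of 10 measured rose and 1 fell in MIA offspring, and 6 rose and 1 fell in control offspring. Tigar, a phosphatase that draws sugar into the pentose phosphate pathway, rose by 2.29 ± 0.29 and 2.75 ± 0.25, Eno2 by 1.95 ± 0.44 and 1.40 ± 0.37 and Adpgk, a hexokinase that uses ADP, by 1.21 ± 0.18 and 1.16 ± 0.15. Eno3 fell by 1.35 ± 0.40 and 0.78 ± 0.31. Pfkfb1 changed by 0.96 ± 0.64 (not called) and 1.49 ± 0.52 (called).

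Of 14 measured NADPH and redox genes, 7 rose in each, and 3 fell in MIA offspring and 2 in control offspring, with a median log2 fold change of 0.67 and 0.68. Slc7a11, the cystine carrier for glutathione synthesis, rose by 6.63 ± 0.44 in MIA offspring and 6.38 ± 0.39 in control offspring (SE), Cybb, the NADPH oxidase subunit of the oxidative burst, by 6.04 ± 0.61 and 5.13 ± 0.50, Gsr, glutathione reductase, by 2.14 ± 0.24 and 2.03 ± 0.21, and Txn1, thioredoxin, by 1.18 ± 0.21 and 1.31 ± 0.17. Of 7 other pentose and ribose phosphate genes measured, 1 rose and 2 fell in MIA offspring, and 2 rose and 2 fell in control offspring. Prps1 rose by 1.18 ± 0.23 and 1.19 ± 0.19, while Prps2, which makes the same product, fell by 0.45 ± 0.13 and 0.74 ± 0.11, and Prpsap2 fell by 2.01 ± 0.17 and 2.06 ± 0.13. H6pd changed by -0.06 ± 0.16 (not called) and 0.44 ± 0.13 (called).

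Around pyruvate dehydrogenase, 4 of 11 measured genes rose and none fell in MIA offspring, and 5 rose and none fell in control offspring. Pdha1, the catalytic subunit that Pdk1 and Pdk3 phosphorylate, rose by 0.83 ± 0.17 in MIA offspring and 0.83 ± 0.14 in control offspring (SE), and Dld by 0.74 ± 0.17 and 0.60 ± 0.14. Pdp1, the phosphatase that reverses the kinases, changed by 0.66 ± 0.33 (not called) and 1.01 ± 0.28 (called), and Pdhx by 0.53 ± 0.22 (not called) and 0.47 ± 0.18 (called). Of 15 known hypoxia targets and HIF genes measured other than the members, 3 rose and 4 fell in MIA offspring, and 3 rose and 5 fell in control offspring. Hif3a rose by 2.47 ± 0.60 and 1.85 ± 0.50 and Ddit4 by 0.89 ± 0.35 and 1.09 ± 0.29, while P4ha1 fell by 1.26 ± 0.17 and 1.29 ± 0.13. Vegfa changed by 0.17 ± 0.56 (not called) and -1.50 ± 0.49 (called), and the difference was not called.

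Of 13 measured regulators of the pathway, 3 rose and 4 fell in MIA offspring, and 2 rose and 5 fell in control offspring. Myc rose by 1.32 ± 0.23 and 1.70 ± 0.20 (SE) and Hnrnpa1, which takes part in Pkm splicing, by 0.93 ± 0.12 and 0.83 ± 0.10. Mlxipl, a glucose-sensing transcription factor, fell by 1.06 ± 0.21 and 0.78 ± 0.17, and Usf1 changed by -0.39 ± 0.32 (not called) and -0.69 ± 0.27 (called). Of 14 measured genes of glycogen and gluconeogenesis, 2 rose and 1 fell in MIA offspring, and 2 rose and 2 fell in control offspring. Gyg, the primer of glycogen, rose by 1.09 ± 0.17 and 1.00 ± 0.14, and Pygb, glycogen phosphorylase of brain, fell by 0.92 ± 0.16 and 0.93 ± 0.13. Gys1 changed by 0.66 ± 0.29 (not called) and 0.74 ± 0.25 (called), and Pgm2l1 by -0.37 ± 0.31 (not called) and -0.82 ± 0.26 (called). In none of these lists was a gene called in a comparison of MIA with control offspring or in the difference of responses.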

How the data were processed

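Microglial RNA was sequenced from libraries made from 5 ng of RNA with oligo-dT priming and 9 PCR cycles in a modified Smart-Seq2 method, as the labels' protocols state. The authors deposited a table of expected counts per gene, and the submitters' processing notes name STAR, RSEM and DESeq2 with no role or version; the genome build is not stated there. Expected counts, of which 73018 values (6.27%) were not whole, were rounded. Gene symbols, coordinates and exon lengths came from GENCODE M21 (GRCm38), which held 55227 of the 55487 identifiers (260 unmatched). Promoters came from RefSeq (GRCm38.p6), and the Ldha start did not match a GENCODE transcript start. Protein sequences were not used here.

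Genes passing edgeR's filter (minimum count 10, total 15) were fitted with edgeR 4.0.16 in R 4.3.3 (TMM scaling, robust quasi-likelihood test, group means and a batch term, 20 libraries, 15 residual degrees of freedom), and p-values were adjusted by Benjamini-Hochberg over 14741 genes. The adjusted p-values in the report are from this test unless a permutation test is named. Intervals are 95% from the t distribution. Of the 28208 genes without a count none was tested. Isoform ratios are log2 ratios of counts with 0.5 added, compared by exact permutation. No replicate pair agreed within sampling noise (lowest chi-square per degree of freedom 9.58). Alternatives were other scalings, DESeq2 1.42.0, limma 3.58.1, other filters, blocks and each library left out.

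Per-library values are printed for members called with an absolute log2 fold change of at least 1 in an LPS comparison and for both members of each called ratio, with control offspring after saline (6 libraries) as lowest, median and highest. From wider lists up to 4 called genes with the largest change in control offspring are named, while Eno3 and the single cell type markers were named after their values were seen. The members, lists and tests were chosen with earlier results of these data known.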

Additional observations from a re-analysis of the deposited data

Results flagged for a closer look

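Among 96 sets of 4 or more libraries (a gene in a group), 4 had a library far from the others by Dixon's test, and chance flags about 1 in 20. Slc16a1 in MIA offspring after saline was highest in replicate 1, at 9.12 CPM against 6.75 to 7.39 CPM in the others. Slc16a3 in the same group was highest in replicate 2, at 18.6 CPM against 13.1 to 14.4 CPM. Rpia in control offspring after LPS was lowest in replicate 3, at 3.53 CPM against 6.01 to 6.97 CPM. Pgls in control offspring after saline was highest in replicate 5, at 39.7 CPM against 24.7 to 30.3 CPM.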

How the results depend on the processing

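No alternative reversed the sign of a called member. With 1 library left out, the number of members that rose with LPS in MIA offspring ran from 11 (without MIA LPS replicate 3) to 19 (without MIA LPS replicate 2), against 17, and in control offspring from 13 (without control LPS replicate 4) to 17 (without control saline replicate 5), against 16, while 3 and 4 fell in each case. Isoform ratios called in MIA offspring numbered 0 in each of the 8 sets with a library left out, against 5, because fewer splits remain. Under the other settings 15 to 18 members rose and 3 fell in MIA offspring, and 14 to 18 rose and 3 to 4 fell in control offspring; no member was called in a comparison of MIA with control offspring under any setting run. Relative log expression scaling moved the median of all genes in control offspring to -0.08 and upper quartile scaling to -0.09, against -0.003 with the scaling used. Deviations from group means in same-numbered libraries of different groups had r from -0.14 to 0.22 (24 pairs, median 0.03, 5 over 0.1). Libraries of unlike number were not summarised beside them, and a low r cannot exclude a pairing. Whether replicate numbers mark a pairing was thus not settled. With the replicate number as a block, 16 members rose and 3 fell in MIA offspring, 14 rose and 4 fell in control offspring, 0 were called between MIA and control offspring, and the median difference of responses was 0.14. The labels do not say what the second number of the ID label marks. It was shared by 10 pairs of libraries from different groups (r from -0.018 to 0.205, 1 over 0.1). Within groups, MIA saline replicates 1 and 2, MIA saline replicates 3 and 4, and control saline replicates 3 and 4 also shared it. The main fit takes these as separate libraries. With the number as a block 15 rose and 3 fell in MIA offspring, without the calls of Slc16a1 and Rpe. In control offspring 15 rose and 4 fell, without the call of Pgam1. No MIA library shared the number with a control library, so comparisons of MIA with control offspring could not be fitted with this block. A tally covered genes that passed in at least 1 setting of a comparison and the isoform ratios called as reported. Over all these settings, 1497 values stayed on their side of the threshold, 100 no longer passed it and 17 newly passed it. The losses include the 5 MIA ratios in each of the 8 sets with a library left out. Among single genes, Pgam1 in control offspring and Rpe and Slc16a1 in MIA offspring were lost most often, and the cause was not tested. Summing near-identical gene copies, an alternative chosen after seeing the data, gave 17 higher and 3 lower in MIA offspring and 16 and 4 in control offspring. With 3 libraries of MIA offspring after LPS, that group limits every comparison it enters.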
